A study of Oryza sativa with 36 samples.

Results

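The loci described here were higher in the middle of the axillary meristem series of rice, in the tissue labelled AM3, than at both ends of it and in the tissue labelled SAM. They were chosen by their measured levels. Unique molecular identifier (UMI) counts were summed over all libraries of a tissue, both cultivars together, and divided by the tissue's summed total to give CPM (counts per 1e+06 counts). A member had at least 300 counts over the 35 libraries and an AM3 level at least 1.3 times that of AM1, that of AM5 and that of SAM. Of 55801 loci in the count table, 3713 reached 300 counts and 130 of these (3.5%) met the rule. The peak ratio named below is the AM3 level divided by the highest of the AM1, AM5 and SAM levels. Since it chose the members, it is given as a description with no test. The ratios used neither AM2 and AM4, whose counts entered only the minimum of 300, nor the difference between the cultivars.

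Axillary meristems are small groups of dividing cells in the angle between a leaf and the stem, and in grasses they grow into tillers or stay arrested as dormant buds. The shoot apical meristem at the tip of the shoot initiates the leaves and stem from which those axils arise. Whether an axillary bud grows out or rests is known to depend on hormones from the rest of the shoot, among them auxin, strigolactone and cytokinin, and on transcription factors that act inside the bud.

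The libraries came from 2 rice cultivars grown alike in short days, with 10 h light periods at 27 °C and 14 h nights at 25 °C. NIL-MP3 gave 3 libraries of each of AM1, AM2, AM3, AM4, AM5 and SAM (18 in all), and Takanari gave 3 of each of AM1 to AM5 and 2 of SAM (17 in all). MP3 is known as a rice locus that affects panicle number, and NIL commonly stands for near-isogenic line. The labels do not give the donor or the recurrent parent of NIL-MP3, and they list every sample, SAM included, as axillary meristems. They do not say what the numbers in AM1 to AM5 count, or whether libraries of one group came from separate plants, so the p-values measure only the spread between these libraries, which may be technical. Another Takanari SAM library, number 18, is labelled as omitted from the table for lack of aligned reads.

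Total UMI counts per library ran between 77362 and 224706, with a median of 143050. The 6 AM3 libraries held 114024 to 173704 counts, while the AM5 libraries included the shallowest pair and ran between 77362 and 154774. The locus identifiers in the table are not paired with gene names or products there, and none of the members' identifiers matched the RefSeq gene table used here. The members are therefore named by identifier only, no role can be given for any of them, and the labelled tissues could not be checked against marker genes. The sources used here give no strand setting for the counting, so it is unknown whether reads of overlapping genes on opposite strands were told apart. Libraries were made from bulk tissue, where fewer cells of a type and less RNA per cell cannot be told apart.

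Every AM3 library stood above every library of the tissues it was compared with when the members' levels were summed. Their summed level was 24126 to 30039 CPM in the 6 AM3 libraries, against 12891 to 18321 CPM in AM1, 14572 to 17685 CPM in AM5 and 14805 to 18104 CPM in SAM. This gap is what the choice asked for. The tissues that were not part of the choice lay between: AM4 libraries held 19976 to 23622 CPM and AM2 libraries 15441 to 23360 CPM. Choosing loci high in AM3 and low in AM1, AM5 and SAM favours such a place between. The 4 members of highest AM3 level made up 24.4% of the summed AM3 level, so a median over members was read as well. Relative to each member's own mean over the pooled levels of the tissues, the median level was 1.25 to 1.47 in AM3, against 0.677 to 0.876 in AM1, 0.766 to 0.903 in AM5 and 0.795 to 0.889 in SAM. It was 0.963 to 1.19 in AM4 and 0.865 to 1.08 in AM2, so that no library of either reached the lowest AM3 library.

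**Figure D1:**
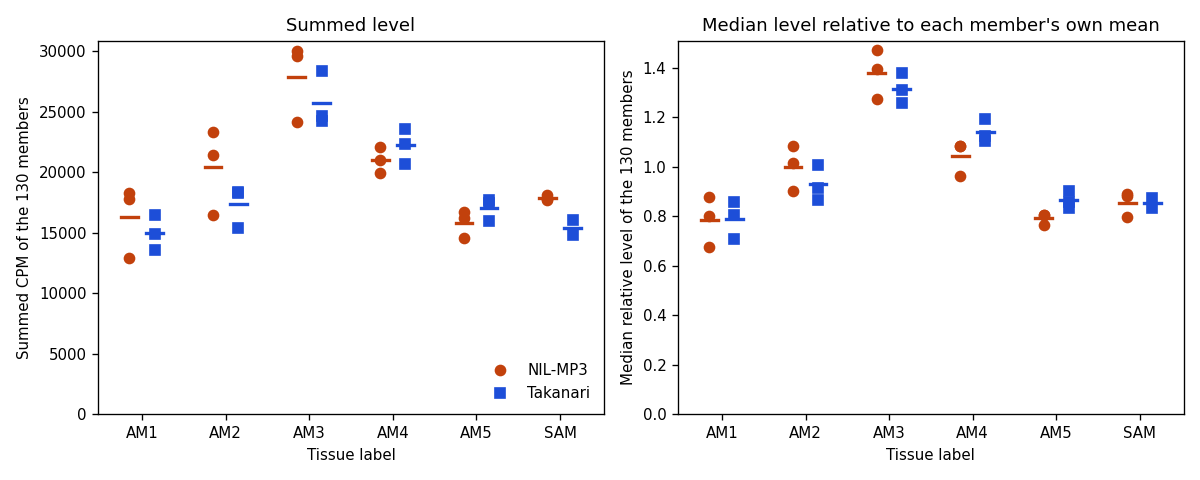
Summed CPM of the members (left) and their median level relative to each member's own mean (right) in each library, by tissue label, with NIL-MP3 as circles, Takanari as squares and bars for group means. The 6 AM3 libraries lie at 24126 to 30039 CPM, above every other library. The AM1, AM3, AM5 and SAM values follow from the choice of members. The ratios did not use AM2 and AM4, but the choice favours levels between the others there.

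The peaks were shallow. The median peak ratio was 1.396 and the highest was 2.11, with 35 members at 1.5 or more and 68 under 1.4. Set against its own AM3 level, the median member stood at 61.5% for AM1, at 71.0% for AM2, at 81.8% for AM4, at 65.6% for AM5 and at 66.4% for SAM. AM3 was the highest of all 6 tissues for 113 members, AM4 for 16 and AM2 for 1. Only 34 members were at least 1.3 times higher in AM3 than in each of the other 5 tissues. AM4 was above AM1, AM5 and SAM for 94 members, AM2 for 76, and both were for 56. Members are low in AM1, AM5 and SAM against AM3 by choice, which favours such counts, and the share over all loci was not taken. No shape is therefore read from them. AM4 was above AM2 for 91 members (70.0%), against 46.5% of all loci with at least 300 counts.

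Members were measured on fewer counts than the loci they were drawn from. Their total count had a median of 443, against 519 for all loci with at least 300 counts, and 89 members (68.5%) had under 600 counts, against 58.8% of those loci. Total counts ran from 300 to 9483 and pooled AM3 levels from 71.9 to 2522 CPM. A locus with few counts can pass a ratio threshold by counting error more easily than one with many, and the part this played in the count of members was not tested.

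**Figure D2:**
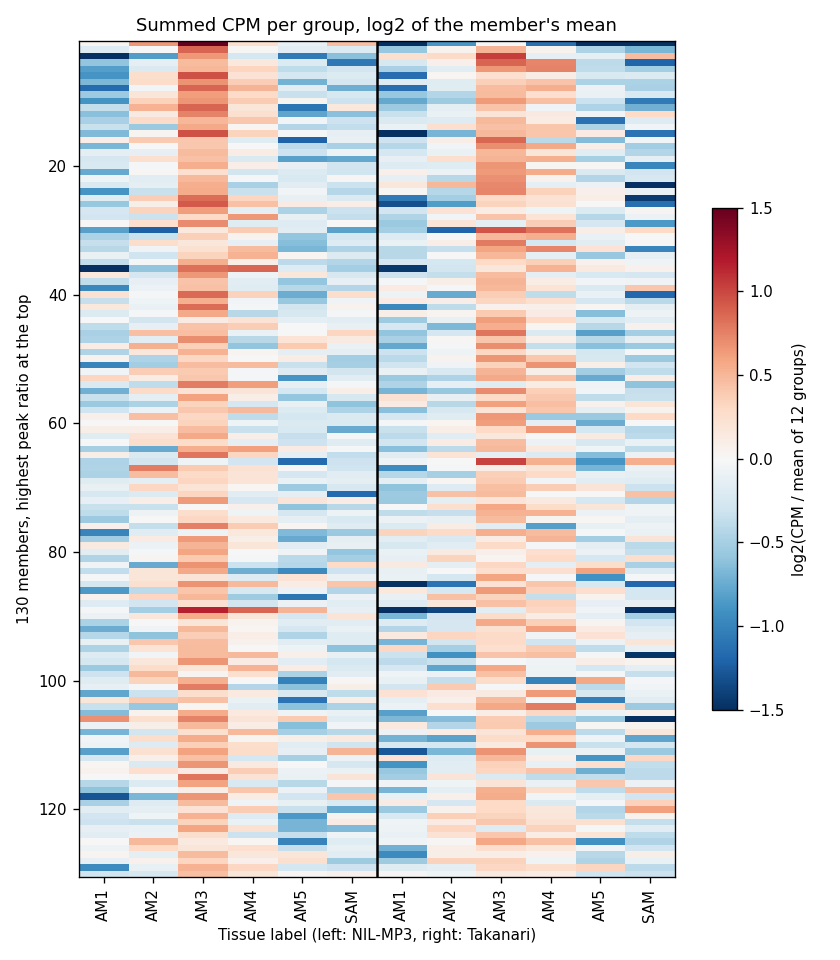
Level of each member in the 12 groups of cultivar and tissue, as log2 of the group's summed CPM over the member's mean of the 12 groups, cut at -1.5 and 1.5 for colour. Rows are the members, with the highest peak ratio at the top; the left columns are NIL-MP3 and the right ones Takanari, and the AM3 column is red in both for most rows.

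The same rule was then applied to other tissues, as a description of how many loci such a shape takes in. With AM4 in place of AM3 it found 95 loci, and with AM2 it found 52. The reverse shape, with AM1, AM5 and SAM each at least 1.3 times AM3, was found for 94 loci. A peak in AM5 was met by 456 loci, in AM1 by 246 and in SAM by 200, but for each of these only 2 tissues remained to compare with. The AM2 and AM4 counts did not compare with AM3, so those loci can also be members. Loci at least 1.3 times each of the other 5 tissues numbered 34 for AM3, 14 for AM2 and 14 for AM4. They numbered 51 for AM1, 130 for AM5 and 52 for SAM, and the reverse shape in AM3 was found for 24. By this like comparison, peaks in AM3 outnumbered peaks in AM2 or AM4 and troughs in AM3. They were fewer than loci highest in AM1, AM5 or SAM.

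Shuffling the tissue labels gave the number of loci that the rule picks when labels carry no tissue. Labels were shuffled 100000 times within each set of 6 consecutive library numbers of a cultivar, since each such set held every tissue once, apart from the missing Takanari library. The shuffled count had a median of 44, with 95% of draws between 22 and 143. The 130 members exceeded that median by 86, and lay inside the range of the draws. In NIL-MP3 alone the rule found 204 loci, against a shuffled median of 117 with 95% of draws between 70 and 231, an excess of 87. In Takanari alone it found 170 loci, against a shuffled median of 124 with 95% of draws between 77 and 313, an excess of 46. For loci that met the rule in each cultivar apart the count was 39, against a shuffled median of 5 with 95% of draws between 0 and 30, an excess of 34. Of these 4 counts, only the one that required both cultivars lay above the middle 95% of its draws. Its highest draw was 163, so it too lay inside the range of all draws. Shuffling also spreads the difference between AM1 and AM5, which many loci showed, over all labels, so the shuffled counts are not those of tissues that are alike, and no p is read from them.

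Read in each cultivar apart, 90 of the 130 members met the rule in NIL-MP3, 69 in Takanari, 38 in both and 9 in neither. The background was 5.49% of the 3713 loci in NIL-MP3 and 4.58% in Takanari, but the pooled rule used the same values, so nothing is read from the difference. The peak ratio was above 1 in both cultivars for 111 members. It was at most 1 in NIL-MP3 for 2 members and in Takanari for 17. Its median over the members was 1.43 in NIL-MP3 and 1.34 in Takanari.

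The levels in single libraries are a description as well, since the sums of these libraries chose the members. Within the 3 sets of 6 library numbers, the AM3 library was above the AM1, AM5 and SAM libraries of its set for 93, 98 and 103 members in NIL-MP3. In Takanari it was so for 82, 82 and 101 members, where the last set lacks SAM and so has 2 tissues to compare. Of the 3713 loci with at least 300 counts, 23.6% to 29.4% had AM3 on top in a set. AM3 was on top in all 6 sets for 16 members, in 5 for 40, in 4 for 45, in 3 for 25 and in 2 for 4. The highest of the 35 libraries was an AM3 library for 93 members, an AM4 library for 15, an AM2 library for 12, an AM5 library for 5, an AM1 library for 3 and a SAM library for 2. Of the 3713 loci, an AM3 library was the highest for 574 (15.5%).

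All 6 AM3 libraries exceeded all 17 libraries of AM1, AM5 and SAM for 2 members, which were also the only ones among the 3713 loci (0.0539%). They are LOC_Os03g41060 and LOC_Os07g40220, singled out after their values were seen. LOC_Os03g41060 had 455, 536 and 568 CPM in AM3 (lowest, median and highest library), against 306, 359 and 448 CPM in AM1, 246, 355 and 414 CPM in AM5 and 217 to 454 CPM in the 5 SAM libraries. The AM3 level cleared the highest SAM library narrowly, and AM2 reached up into it, at 347 to 534 CPM. LOC_Os07g40220 had 192, 215 and 324 CPM in AM3, against 21.0, 97.2 and 129 CPM in AM1, 77.6, 134 and 176 CPM in AM5 and 53.0 to 174 CPM in SAM. Its AM4 libraries lay at 161 to 240.1 CPM, reaching into the AM3 range, while its AM2 libraries spread between 40.7 and 320.2 CPM.

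The member of highest peak ratio, also the highest by the lower of its ratios in both cultivars, was LOC_Os11g26790, and its level differed more between sets of libraries than between tissues. It had 7.38, 159 and 990.2 CPM in AM3, against 9.29, 29.8 and 520.1 CPM in AM1, 25.9, 53.7 and 265 CPM in AM5 and 18.7, 64.8 and 418 CPM in the 5 SAM libraries. The ranges of all tissues overlapped, and in each the highest value came from the NIL-MP3 library among numbers 13 to 18. Its pooled peak ratio was 2.11, with a 95% interval of 1.71 to 2.63 that covers counting error only. Without those 6 libraries its pooled level was 154 CPM in AM3, against 28.3 CPM in AM1, 51.0 CPM in AM5 and 55.7 CPM in SAM, a ratio of 2.77. What sets these libraries apart at this locus was not tested.

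The second by both measures was LOC_Os03g22960, which had no such set. It had 95.9, 141 and 190.0 CPM in AM3, against 50.6, 55.8 and 111 CPM in AM1, 26.9, 69.6 and 102 CPM in AM5 and 28.1, 70.7 and 89.0 CPM in SAM. The lowest AM3 library fell below the highest AM1 and AM5 libraries and above every SAM library. Its ratio was 2.03 pooled (95% counting interval 1.44 to 2.91), 2.06 in NIL-MP3 and 1.96 in Takanari.

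The most abundant members were LOC_Os03g22270 and LOC_Os05g13630, and they had different courses around AM3. LOC_Os03g22270 had 1785, 2540 and 3170 CPM in AM3, against 874, 1240.2 and 2681 CPM in AM1, 1239, 1666 and 1887 CPM in AM5 and 1245, 1599 and 2635 CPM in SAM. Its AM4 libraries held 1728 to 2802 CPM, overlapping both AM3 and AM5. LOC_Os05g13630 had 1275, 1504 and 2088 CPM in AM3, against 836, 1090 and 1742 CPM in AM1, 401, 495 and 799 CPM in AM5 and 824, 1185 and 1399 CPM in SAM. Here every AM3 library lay above every AM5 library, while AM1 and SAM overlapped AM3.

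**Figure D3:**
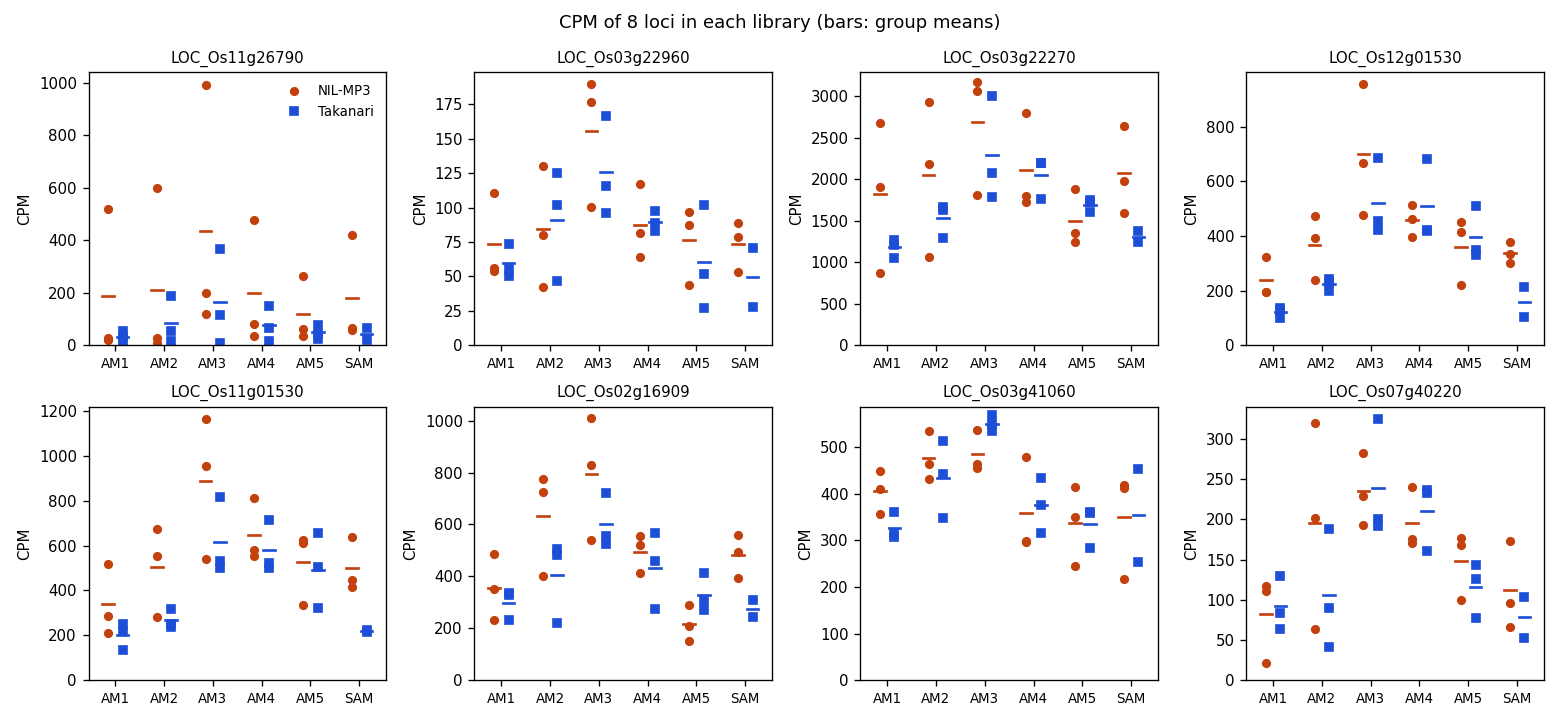
CPM of 8 members in each library by tissue label, with NIL-MP3 as circles, Takanari as squares and bars for group means. In LOC_Os11g26790 a NIL-MP3 library of the set 13 to 18 is on top in every tissue, and in LOC_Os03g41060 and LOC_Os07g40220 the AM3 libraries lie above those of AM1, AM5 and SAM.

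At the threshold, members and non-members had nearly equal ratios. Just inside it were LOC_Os03g50510, with a peak ratio of 1.3001, and LOC_Os10g32520, with 1.3015. Just outside it were LOC_Os05g22830, with 1.2996, and LOC_Os05g02880, with 1.2986. The 95% counting interval of the ratio was 0.929 to 1.83 for LOC_Os03g50510 and 0.987 to 1.73 for LOC_Os10g32520. Outside the threshold it was 1.01 to 1.67 for LOC_Os05g22830 and 0.979 to 1.73 for LOC_Os05g02880. All 4 cover 1.3, which follows from picking the ratios nearest to it, so nothing is read from that. All but the interval of LOC_Os05g22830 reach below 1.

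A reading of the peak that is independent of the choice came from choosing loci in one cultivar and measuring them in the other. The contrast tested was AM3 minus the mean of AM1, AM5 and SAM on the log2 scale. Unlike the rule, it does not ask AM3 to exceed each of these tissues, so it can be positive without a peak. It was tested with edgeR's quasi-likelihood test, fitted on the second cultivar alone. Benjamini-Hochberg adjustment was over all loci tested in that cultivar, at 0.05. Of the 204 loci chosen in NIL-MP3, 6 (2.94%) were called in Takanari, all higher in AM3, against a background of 0.248% of 5234 tested loci. The contrast was positive for 165 of them (80.9%), against 52.7% of all tested loci, with a median of 0.30 against 0.03. DESeq2 called 3 of them. Of the 170 loci chosen in Takanari, 1 (0.588%) was called in NIL-MP3, higher in AM3, against a background of 0.037% of 5401 tested loci. There 134 (78.8%) were positive, against 50.7% of all tested loci, with a median of 0.32 against 0.01. The chosen loci had at least the minimum count of the rule, while the tested loci include many below it. The backgrounds in both directions are therefore not matched for count. The edgeR fit had no term for the sets of consecutive library numbers. With a block for these sets more loci were called, both among the chosen and among all tested loci (counts at the end). In the fit without the block the calls rested on single libraries. Leaving out libraries was not repeated with the block. None of the 6 was called without Takanari AM3 library 9, and 3 were without Takanari AM3 library 15. The 1 was lost without NIL-MP3 AM1 library 11, AM3 library 9 or AM3 library 15.

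The ratio itself shrank to near 1 in the cultivar it was not chosen in. The 204 loci chosen in NIL-MP3 had a median ratio of 0.985 in Takanari, against 0.813 for all loci with at least 300 counts. It was above 1 for 100 of them (49.0%, against 23.0%) and at least 1.3 for 39 (19.1%, against 4.58%). The 170 loci chosen in Takanari had a median ratio of 1.06 in NIL-MP3, against 0.844 for all loci with at least 300 counts. It was above 1 for 93 of them (54.7%, against 25.9%) and at least 1.3 for 39 (22.9%, against 5.49%). About 1 in 5 loci chosen in either cultivar thus met the rule again in the other, and these are the same 39 loci, of which 38 were members.

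**Figure D4:**
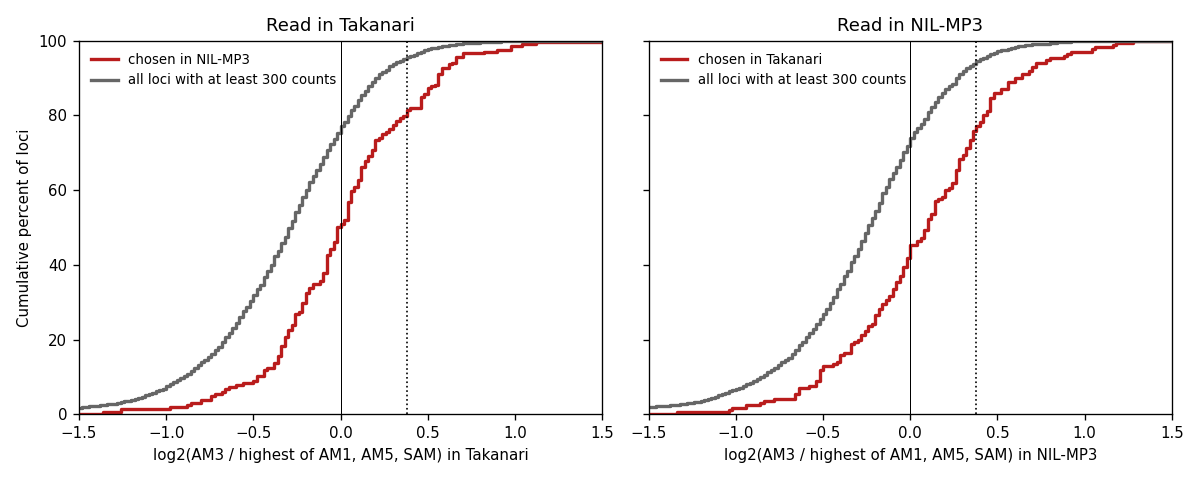
Cumulative percent of loci by log2 of the AM3 level over the highest of the AM1, AM5 and SAM levels, read in the cultivar that did not choose them (left: read in Takanari, right: read in NIL-MP3). The red line is the chosen loci, the grey line all loci with at least 300 counts, and the dotted line the ratio of 1.3. The chosen loci lie to the right of the rest, but only 19.1% and 22.9% of them pass the dotted line.

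The lowest p-values in Takanari belonged to LOC_Os12g01530 and LOC_Os11g01530, both chosen in NIL-MP3 and both members. Neither met the ratio rule in Takanari, where the ratio was 1.29 for LOC_Os12g01530 and 1.25 for LOC_Os11g01530. The pooled Takanari level in AM4 was close to that in AM3 for both, at 489 against 512 CPM for LOC_Os12g01530 and 564 against 607 CPM for LOC_Os11g01530. LOC_Os12g01530 had 420.5, 684 and 456 CPM in the Takanari AM3 libraries, against 130.0, 138 and 101 CPM in AM1, 349, 511 and 329 CPM in AM5 and 103 and 212 CPM in SAM. All AM3 libraries were above AM1 and SAM, and 1 AM5 library reached into their range. The contrast was 1.34 ± 0.22 (log2, SE; edgeR adjusted p = 1.23e-04), and 1.08 without Takanari AM3 library 9, where the adjusted p was 0.053.

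LOC_Os11g01530 had 502, 816 and 533 CPM in the Takanari AM3 libraries, against 251, 221 and 133 CPM in AM1, 504, 655 and 321 CPM in AM5 and 215 and 224 CPM in SAM. It again lay above AM1 and SAM and overlapped AM5. The contrast was 1.11 ± 0.21 (log2, SE; edgeR adjusted p = 0.00134), and 0.85 without Takanari AM3 library 9, where the adjusted p was 0.19. The identifiers carry the same locus number on chromosomes 11 and 12, and the short-arm ends of these chromosomes are known to hold a recently duplicated block of near-identical genes. If the loci are such copies, the counting could have split reads between them, so their separate values are uncertain. A line over AM1 to AM5 had a rising slope for both, although their pooled levels fell after AM3. It was 0.32 ± 0.05 for LOC_Os12g01530 and 0.29 ± 0.05 for LOC_Os11g01530 (log2 per AM number, SE). This is a description since AM1, AM3 and AM5 enter the rule.

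In NIL-MP3 the locus called was LOC_Os02g16909, chosen in Takanari. It had 541, 1009 and 829 CPM in the NIL-MP3 AM3 libraries, against 231, 352 and 484 CPM in AM1, 288, 149.9 and 207 CPM in AM5 and 393, 494 and 561 CPM in SAM. The AM3 libraries were above AM1 and AM5, and the lowest of them was below the highest SAM library. The contrast was 1.21 ± 0.22 (log2, SE; edgeR adjusted p = 0.0217), and the adjusted p was 0.068, 0.597 and 0.247 without AM1 library 11, AM3 library 9 and AM3 library 15. The next locus, LOC_Os02g27810, had 124, 223 and 219 CPM in AM3, against 28.0, 91.3 and 35.9 CPM in AM1, 25.0, 61.7 and 129 CPM in AM5 and 46.6, 127 and 84.6 CPM in SAM. Its groups overlapped by 1 library each of AM5 and SAM, and the contrast of 1.35 ± 0.34 did not pass (edgeR adjusted p = 0.224).

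AM4 against AM2 is a comparison the rule did not use, and it asked on which side of AM3 the members were higher. With edgeR's quasi-likelihood test over all 12 groups, 6 of the 130 members (4.62%) were called, all higher in AM4, against a background of 3.27% of the 6943 tested loci in either direction and 1.34% higher in AM4. DESeq2 called 4 members. All 130 members had passed the filter on low counts. The tested loci also include many below the members' minimum count, so the backgrounds given here are not matched for count. Whether members were called more often than loci of like counts was not tested. By edgeR, 19 members (14.6%) had an unadjusted p under 0.05, against 1114 of the 6943 tested loci, a similar share. The change was positive for 92 members (70.8%), against 50.2% of all tested loci, with a median log2 change of 0.22 against 0.00. With a block for the library sets more were called, both among the members and among all tested loci (counts at the end). Leaving out single libraries gave between 2 and 7 called members, and 8 libraries each left 3 or fewer: AM2 libraries 4 and 10 and AM4 libraries 8 and 14 of NIL-MP3, and AM2 libraries 4, 10 and 16 and AM4 library 14 of Takanari.

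**Figure D5:**
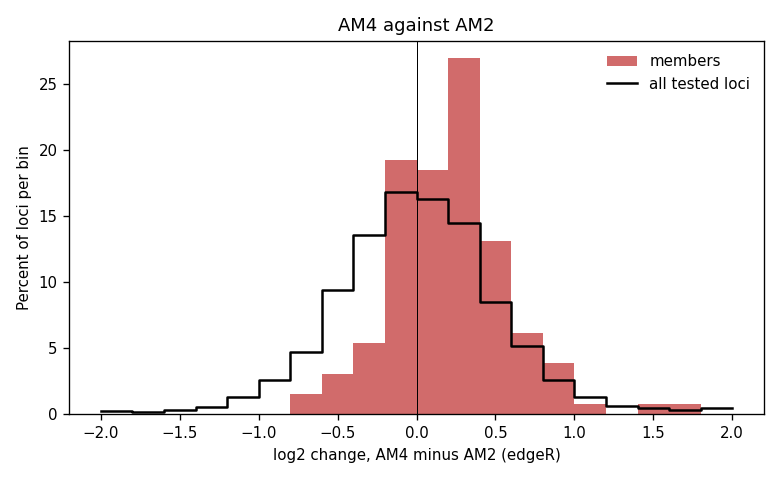
Percent of loci in each bin of the log2 change of AM4 minus AM2, for the members (bars) and for all tested loci (line); the end bins also take in loci beyond them. The bars lie to the right of the line, with a median of 0.22 against 0.00.

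LOC_Os12g14930 had the lowest p of the members that rose. It had 42.6, 102 and 128 CPM in AM4, against 14.1, 23.6 and 56.0 CPM in AM2 (lowest, median and highest of 6 libraries each). In AM4, 5 of the 6 libraries were above every AM2 library. The change was 1.76 ± 0.39 (log2, SE; edgeR adjusted p = 0.00586), on 93 counts in AM4 and 26 in AM2. Its pooled level was 99.0 CPM in AM4 and 95.8 CPM in AM3.

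LOC_Os07g31450 had 181, 211 and 242 CPM in AM4, against 72.0, 124 and 163 CPM in AM2, with no overlap between the 6 libraries of each. The change was 0.87 ± 0.22 (log2, SE; edgeR adjusted p = 0.0150). Pooled over libraries it was higher in AM4 than in AM3, at 211 against 188 CPM. LOC_Os12g01530 was among the 6 as well, with 398, 442 and 683 CPM in AM4, against 198, 242 and 475 CPM in AM2 and a change of 0.75 ± 0.20 (log2, SE; edgeR adjusted p = 0.0182).

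No member was called lower in AM4. The lowest p in that direction belonged to LOC_Os03g63020, with 23.3, 40.7 and 83.3 CPM in AM4, against 49.4, 67.8 and 113 CPM in AM2. Its groups overlapped, and the change of -0.76 ± 0.35 did not pass (edgeR adjusted p = 0.271). LOC_Os04g46180 was next, with 35.5, 56.9 and 75.9 CPM in AM4, against 37.5, 92.9 and 119 CPM in AM2, and a change of -0.58 ± 0.31 (edgeR adjusted p = 0.348).

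A straight line over AM1 to AM5 called few of the members. The slope was called for 11 of the 130 (8.46%), 9 rising and 2 falling, against a background of 19.2% of the 6943 tested loci in either direction and 9.36% rising. A block for the library sets raised both counts, as given at the end. AM1, AM3 and AM5 enter both the slope and the rule, so this share is a description. Its background again includes many loci below the members' minimum count. DESeq2 called the slope for 10 members. Among the 11 were LOC_Os12g01530 and LOC_Os11g01530, with a rising slope. LOC_Os05g13630 had a falling one of -0.23 ± 0.04 (log2 per AM number, SE), although its pooled level was highest in AM3.

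Between NIL-MP3 and Takanari no member was called in AM3. The count was 0 of 130 by edgeR's quasi-likelihood test, against a background of 0.0% of the 6943 tested loci, with 6 members (4.62%) at an unadjusted p under 0.05, against 250 (3.60%) of the tested loci. DESeq2 also called 0, with 2 at an unadjusted p under 0.05. The median log2 difference, NIL-MP3 minus Takanari, was 0.07, and 80% of the members lay between -0.42 and 0.53. The smallest adjusted p among the members was 0.99966.

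The members with the lowest p for the cultivars in AM3 did not pass, and are given by their values. LOC_Os05g28740 had 69.5, 203 and 138 CPM in NIL-MP3, against 36.9, 87.7 and 46.4 CPM in Takanari, a difference of 1.28 ± 0.56. LOC_Os12g31450 had 131, 45.9 and 144 CPM in NIL-MP3, against 59.0, 43.9 and 54.1 CPM in Takanari, a difference of 0.99 ± 0.48. Both pairs of groups overlapped. LOC_Os05g34780 had 46.3, 59.0 and 74.8 CPM in NIL-MP3, against 111, 175 and 108 CPM in Takanari, with no overlap and a difference of -1.11 ± 0.47. LOC_Os10g10990 had 169.9, 131 and 144 CPM in NIL-MP3, against 192, 263 and 216 CPM in Takanari, again with no overlap and a difference of -0.61 ± 0.35. The adjusted p of each was 0.99966 by edgeR.

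The height of the peak was not found to differ between the cultivars either. For AM3 minus the mean of AM1, AM5 and SAM, NIL-MP3 minus Takanari, 0 of 130 members were called by edgeR, against a background of 0.0% of the tested loci, with 2 (1.54%) at an unadjusted p under 0.05, against 165 (2.38%) of the tested loci. DESeq2 called 0 with 2 at an unadjusted p under 0.05. The median difference was 0.02 on the log2 scale and 80% of the members lay between -0.49 and 0.72. For LOC_Os03g22960, whose ratio was 2.06 in NIL-MP3 and 1.96 in Takanari, the difference was -0.06 ± 0.47 (log2, SE; edgeR adjusted p = 0.99995).

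The members were spread over all 12 chromosomes, as read from their identifiers. Chromosome 3 held the most, 28 of its 578 loci with at least 300 counts. Chromosome 10 held the largest share, 14 of 184 loci (7.61%), followed by chromosome 12 with 11 of 194 (5.67%). Chromosome 9 held 3 of 184 (1.63%), and chromosome 8 the smallest share, 4 of 270 (1.48%).

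Of the 14 members on chromosome 10, 8 lay in 2 runs of close identifiers, found after the values were seen by joining members whose locus numbers differ by at most 100. How often loci with at least 300 counts lie in such runs was not counted, so nothing is read from the 8. A run of 5 reached from LOC_Os10g38216 to LOC_Os10g38278. Its summed level was 930.1, 1086 and 1190 CPM in AM3 (lowest, median and highest library), against 305, 715 and 848 CPM in AM1, 452, 782 and 866 CPM in AM5 and 360.5, 742 and 859 CPM in SAM. Every AM3 library was above every library of those tissues, and AM4 reached into the AM3 range with 654 to 1028 CPM. The choice of members asked for such a gap to AM1, AM5 and SAM. A run of 3 from LOC_Os10g21194 to LOC_Os10g21238 had 456, 557 and 597 CPM in AM3, against 135, 388 and 507 CPM in AM1, 233, 290 and 504 CPM in AM5 and 205, 350 and 406 CPM in SAM, and here AM1 and AM5 overlapped AM3. Whether the loci of a run share sequence, so that reads were split or counted for several of them, was not tested.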

How the data were processed

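Per the labels' protocols, libraries were made by CEL-Seq2 from 100 pg of RNA, amplified by in vitro transcription and 11 to 15 PCR cycles. Such libraries tag 3' ends and carry UMIs, so values are not divided by gene length. Bowtie2 and Subread (2.1) are named in the submitters' processing notes; the sources used here name no genome build. The authors deposited 1 table of raw UMI counts per locus.

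Members were found from pooled CPM as described in the report. Backgrounds over all tested loci were not matched to the members' counts. Counts were tested with edgeR 4.0.16 in R 4.3.3 (quasi-likelihood, robust, TMM factors, filterByExpr with a minimum count of 10), fitted to 12 group means of cultivar and tissue, with Benjamini-Hochberg adjustment at 0.05; the test was checked on simulated data. The common biological coefficient of variation was 0.248. Counting intervals of ratios are exact binomial (95%) and cover counting error only. DESeq2 1.42.0, other thresholds, scalings, filters, a replicate block and leaving out each library were alternatives.

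Printed identifiers were, per comparison and direction, the 2 of lowest p, highest ratio or level, or nearest the threshold. The members and lists were chosen with earlier results of these data known.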

Additional observations from a re-analysis of the deposited data

Results flagged for a closer look

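Each group examined was the libraries of 1 tissue, both cultivars together. It was read for 1 of the identifiers above, or for the members' summed level or median relative level. Of 144 such groups, 7 held a library set apart from the rest by a wide gap (Dixon's criterion), where chance gives about 1 in 20. The locus of highest peak ratio, LOC_Os11g26790, accounts for 6 of them, each time in a NIL-MP3 library of numbers 13 to 18. It had 520.1 CPM in AM1 library 17, with 55.3 CPM in the next library of AM1. It had 599 CPM in AM2 library 16, with 188 CPM next, and 990.2 CPM in AM3 library 15, with 368 CPM next. It had 476 CPM in AM4 library 14, with 149.9 CPM next, then 265 CPM in AM5 library 13, with 78.4 CPM next, and 418 CPM in SAM library 18, with 66.6 CPM next. LOC_Os03g50510, just inside the threshold, had 47.5 CPM in NIL-MP3 AM2 library 16, below the 75.1 CPM of the next library of AM2.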

How the results depend on the processing

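The number of members followed the thresholds: 343 with a minimum of 150 counts, 41 with 600, 272 at a ratio of 1.2, 35 at 1.5, and 204 in NIL-MP3 alone. It stayed within 1.5 times of 130 in Takanari alone (170), with the mean of library CPM (126), with TMM sizes (97), without single libraries (123 to 155) and without a set of 6 library numbers (119 to 155, an alternative chosen after seeing the data). A similar number did not mean the same loci. Without an AM3 library 103 to 117 of the 130 remained, with TMM sizes 97, and in Takanari alone 69. TMM sizes were 0.958 times the summed totals in AM5 and 1.02 times in AM3. Without single libraries, members called for AM4 minus AM2 numbered 2 to 7, for the slope 9 to 15, loci chosen in NIL-MP3 and called in Takanari 0 to 8, and the reverse 0 to 2. DESeq2 called 3 of the loci chosen in NIL-MP3. Of those chosen in Takanari, 5 were called with no filter on low counts and 2 when chosen at a ratio of 1.2. The causes were not tested. The comparisons between cultivars called 0 members in every setting run. Of the named loci tested, 5 values lost their call, all without a single library and all given in the report; LOC_Os02g27810 passed in 2 settings, and none changed sign.

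Library numbers did not pair the cultivars: 4 of 17 same-numbered pairs correlated over 0.1 (median -0.007), and 11 of 34 libraries correlated best with their own number. Within a cultivar, libraries of one set of 6 numbers correlated at a median of 0.23, against -0.11 for other libraries. With the replicate block (set within cultivar) 12 members were called for AM4 minus AM2, with 519 of all tested loci against 227, and 19 for the slope, with 1596 of all tested loci against 1331. It called 10 of the loci chosen in NIL-MP3, with 41 of all loci tested in Takanari against 13, and 9 of those chosen in Takanari, with 37 of all loci tested in NIL-MP3 against 2.

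Depth limits what single members can show: the median member had 443 counts over 35 libraries.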
